A study of Homo sapiens with 6 samples.

Results

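The genes of the microRNA machinery were measured by RNA sequencing in SH-SY5Y cells, a human neuroblastoma cell line that keeps traits of sympathetic nerve cells. They are the nuclear genes DROSHA and DGCR8, the export gene XPO5, the cytoplasmic genes DICER1, TARBP2 and PRKRA, and the Argonaute genes AGO1, AGO2, AGO3 and AGO4. All 10 were chosen by symbol, as known core factors of the pathway, and each has 1 row among the 19610 genes of the count table. The SGC707 group held 3 libraries from wild-type cells treated with SGC707, which inhibits PRMT3, an enzyme that methylates arginines of proteins, and the DMSO group 3 libraries from wild-type cells that received DMSO, the solvent. Both groups have a replicate A, B and C. The sources used here do not give the dose, the duration or say that replicates came from separate cultures. The p-values therefore rest on variation among these 6 libraries, some or all of which may be technical. The study asked about the microRNA MIR448, the receptor gene IGF1R and phosphorylation of tau, and mature microRNAs were not analysed here.

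MicroRNAs begin as hairpins in long primary transcripts. DROSHA, an RNase III, and its RNA-binding partner DGCR8 form the Microprocessor, which cuts the hairpin free in the nucleus, and XPO5 (exportin 5) carries it to the cytoplasm. DICER1, a further RNase III, removes the loop with the help of the double-stranded RNA-binding proteins TARBP2 or PRKRA, and an Argonaute protein keeps a single strand as the guide that pairs with messenger RNAs. AGO2 is the Argonaute best known for cutting its targets. Argonautes also recruit GW182 proteins, encoded by TNRC6A, TNRC6B and TNRC6C, which bring in the deadenylases that shorten messenger RNAs.

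The Microprocessor is also known to cut the messenger RNA of its own subunit DGCR8, at hairpins that are annotated as microRNA genes. MIR3618 lies in the 5′ untranslated part of DGCR8 exon 2 (GRCh38 chromosome 22, 20085746 to 20085833) and MIR1306 in the coding part of the same exon (20086058 to 20086142). The mature microRNAs of both are shown because they mark where that cut falls, and the mature form of MIR448 because it is the microRNA the study asked about. Sequences are from RefSeq (GRCh38.p14), 5′ to 3′, with the seed (bases 2 to 8) in capitals.
hsa-miR-3618, chr22:20085797-20085818, plus strand: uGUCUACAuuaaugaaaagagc
hsa-miR-1306-5p, chr22:20086072-20086093, plus strand: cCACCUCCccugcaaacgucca
hsa-miR-1306-3p, chr22:20086112-20086129, plus strand: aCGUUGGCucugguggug
hsa-miR-448, chrX:114823524-114823545, plus strand: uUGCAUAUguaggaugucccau
The 4 seeds differ from each other. A read count per gene does not separate cut from uncut DGCR8 transcripts.

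Total counts were 11658728 to 12127187 per library with SGC707 and 11863696 to 15437602 with DMSO, and mitochondrially encoded genes took 24.3% to 37.7% of them with SGC707 and 46.7% to 60.7% with DMSO. Library SGC707 C was unlike the rest: over 11592 genes, the Spearman correlation of transcript GC content with its deviation from each gene's mean was -0.77, while SGC707 A had 0.53, SGC707 B 0.34 and the DMSO libraries -0.13 to 0.23. Libraries of the same group differed by more than sampling noise in every pair, the smallest chi-square being 12.4 per degree of freedom. Adrenergic neuroblastoma markers summed to 1918 to 2309 normalised CPM (counts scaled to a common library size) with SGC707 and 2627 to 3458 with DMSO, with 9 of 10 passing the filter on low counts and the tyrosine hydroxylase gene TH at 0 in all 6 libraries. Schwann-like, epithelial and leukocyte markers summed to 0.363 to 3.27 normalised CPM with SGC707 and 1.05 to 3.34 with DMSO, with SOX10, CDH19, PTPRC and CD3E at 0 in all 6 libraries. Mesenchymal markers summed to 17.1 to 22.2 with SGC707 and 17.3 to 20.7 with DMSO. In bulk RNA, fewer cells of a type and less RNA per cell cannot be told apart. The part of these differences between libraries and groups in the results below was not tested. PRMT3, the target of the inhibitor, stood at 20.6 ± 2.32 normalised CPM with SGC707 and 16.2 ± 1.32 with DMSO (SD, n = 3 each), giving a fold change (log2) of 0.34 (edgeR adjusted p = 0.479). Since an inhibitor need not change the messenger RNA of its target, PRMT3 does not check the labels.

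None of the 10 genes passed the test of SGC707 against DMSO, edgeR's quasi-likelihood test with Benjamini-Hochberg adjustment over all 12196 genes tested and a threshold of 0.05, at which 0.0246% of all tested genes passed. Their adjusted p ranged from 0.387 to 0.875, and their log2 fold changes from -0.33 (DROSHA) to 0.81 (AGO1). At an unadjusted p under 0.05 there was 1 of the 10, AGO1, or 10% of them against 12.8% of all tested genes. DESeq2 and limma-voom also called 0 of the 10, where they called 2.52% and 0.0164% of all tested genes. Scaling by library totals alone called 5 of the 10, all higher, against 21.4% of all genes; the median log2 fold change of all genes was then 0.69, and DROSHA, AGO2 and AGO3 were positive too. A limma-voom fit with library weights called 2, DGCR8 as higher and DROSHA as lower, against 28.2%. The log2 fold change was positive for 7 of the 10 and negative for 3, with a median of 0.13, where 52.8% of all tested genes were positive with a median of 0.02. The SGC707 libraries lay all above the DMSO libraries in 2 genes, AGO1 and DGCR8, and all below in 0, or 20% of the 10 against 20.6% of all tested genes (10.8% above and 9.78% below). In counts simulated for this comparison, with 200 genes changed, the test found 98.9% of the genes given a 4-fold change. It found 51.4% of those given a 2-fold change. In the data only 3 genes passed, and the adjustment is stricter where few genes pass, so these shares can be too high here. In the main edgeR fit every fitted change among the 10 was below 2-fold. AGO1 was above 2-fold without DMSO B (log2 of 1.14) and with library totals alone (log2 of 1.55). The missing calls therefore do not show that levels were equal, and the 95% intervals below give the precision of each estimate.

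**Figure D1:**
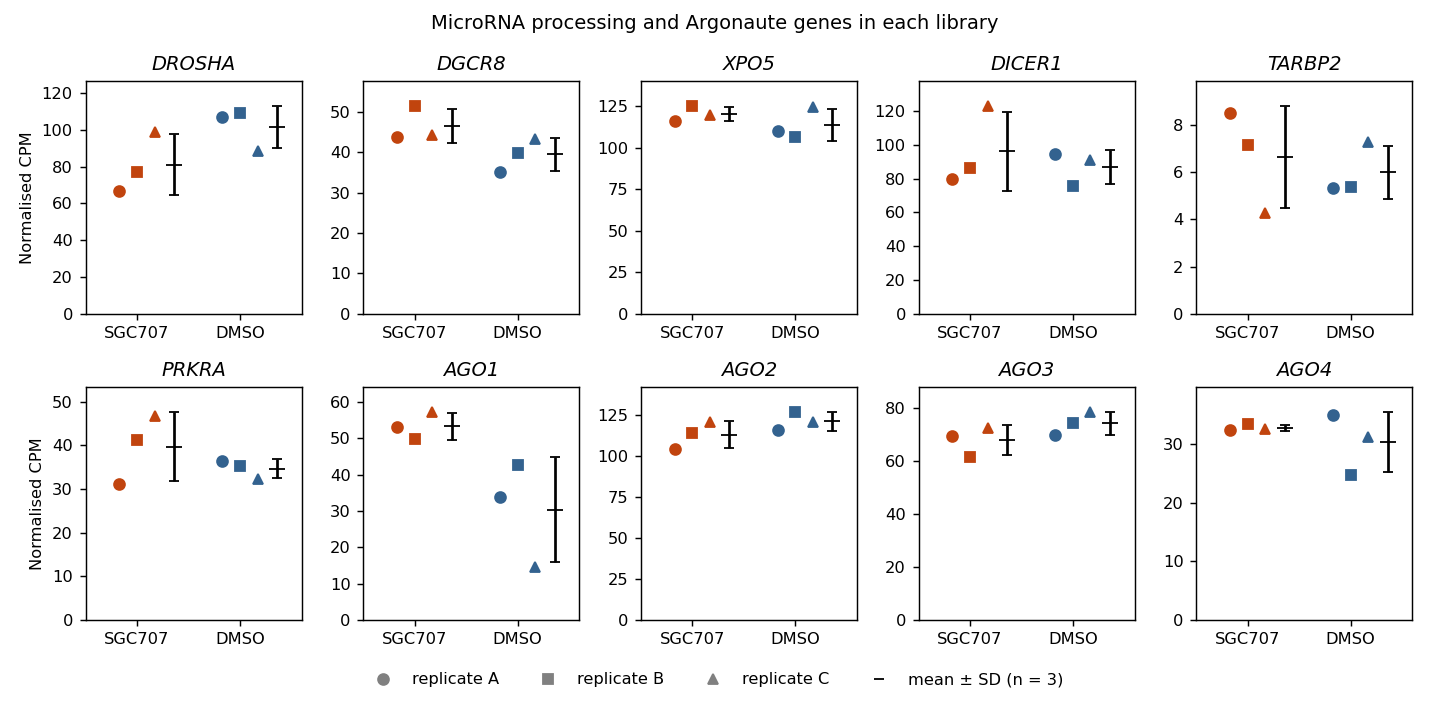
Normalised CPM of each of the 10 genes (vertical axes from 0) in the 3 SGC707 libraries (red, left) and the 3 DMSO libraries (blue, right), with the replicate letter as the marker shape and the mean ± SD beside the points. The groups are apart in AGO1, where DMSO C is lowest at 14.5 normalised CPM, and narrowly in DGCR8, and they overlap in the other 8 genes.

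DROSHA (chromosome 5, 31400497 to 31532196, minus strand) had the largest negative difference of the 10. It stood at 67.0, 77.3 and 99.1 normalised CPM in replicates A, B and C of SGC707, against 107.3, 109.2 and 88.6 in those of DMSO. SGC707 A and B lay below all DMSO libraries, while SGC707 C lay above DMSO C, so the groups overlapped. The means were 81.1 ± 16.4 with SGC707 and 101.7 ± 11.4 with DMSO (SD, n = 3 each), giving a fold change (log2) of -0.33 (95% interval -0.75 to 0.10, edgeR adjusted p = 0.504). Without SGC707 C it was -0.50 (edgeR adjusted p = 0.0551), where 9.26% of all tested genes passed the threshold. It was -0.20 without SGC707 A. After a correction for GC content and length it was -0.34 (edgeR adjusted p = 0.159), and the adjusted p ranged from 0.0128 (limma-voom with library weights) to 0.915 over all 17 alternatives.

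DGCR8 (chromosome 22, 20080232 to 20111877, plus strand) lay on the other side. It stood at 43.8, 51.4 and 44.3 normalised CPM in replicates A, B and C of SGC707, against 35.2, 39.9 and 43.2 in those of DMSO. Every SGC707 library was above every DMSO library; SGC707 A and DMSO C lay close together. The means were 46.5 ± 4.26 with SGC707 and 39.4 ± 4.03 with DMSO (SD, n = 3 each), giving a fold change (log2) of 0.24 (95% interval -0.13 to 0.60, edgeR adjusted p = 0.562). DGCR8 has the second highest transcript GC content of the 10 genes, 54.7%, and 11.3% of the 50-base stretches of its transcript occur in transcripts of other annotated genes, mainly the antisense gene AC006547.2, so its counts carry some uncertainty.

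DROSHA and DGCR8 act as partners, and the ratio of their counts within a library does not depend on how libraries are scaled. It was 1.53, 1.502 and 2.24 in replicates A, B and C of SGC707, against 3.05, 2.74 and 2.05 in those of DMSO. The means were 1.76 ± 0.416 with SGC707 and 2.61 ± 0.511 with DMSO (SD, n = 3 each), and the groups overlapped through replicate C, which was the highest of the SGC707 libraries and the lowest of the DMSO libraries. The transcripts differ in GC content (45.8% for DROSHA, 54.7% for DGCR8), and the ratio does not correct for this. The correlation with GC content ran from 0.53 in SGC707 A to -0.77 in SGC707 C, and its part in the ratio was not tested. On the log2 scale the ratio differed by -0.58 (SGC707 minus DMSO), and by -0.77 without SGC707 C and -0.46 without DMSO A. Per kilobase of transcript, DROSHA was above DGCR8 in every library, by 1.28-fold to 1.90-fold with SGC707 and 1.74-fold to 2.59-fold with DMSO. Per kilobase of coding sequence DROSHA was below DGCR8 in SGC707 A and B, at ratios of 0.861 and 0.845, and above it in the other 4 libraries, since the untranslated part of the DGCR8 transcript is long.

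XPO5 (chromosome 6, 43522330 to 43576075, minus strand), the export factor, had similar values throughout. It stood at 116.4, 125.2 and 119.5 normalised CPM in replicates A, B and C of SGC707, against 109.9, 106.3 and 124.5 in those of DMSO. DMSO C lay among the SGC707 libraries, and DMSO A and B lay below them. The log2 fold change was 0.08 (95% interval -0.22 to 0.39, edgeR adjusted p = 0.830), 0.035 without DMSO B and 0.15 without DMSO C. The gene POLR1C, which encodes a subunit of RNA polymerases I and III, overlaps XPO5 on the opposite strand over 40090 bases, and 3.80% of the 50-base stretches of the XPO5 transcript occur in its transcripts. No source used here states whether counting used strand, so reads of the overlap cannot be told apart.

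DICER1 (chromosome 14, 95086228 to 95158010, minus strand) differed more between replicates than between groups. It stood at 79.6, 86.1 and 123.1 normalised CPM in replicates A, B and C of SGC707, against 94.8, 75.8 and 90.8 in those of DMSO. SGC707 C was the highest of the 6 libraries, and SGC707 A and B lay within the range of the DMSO libraries. The log2 fold change was 0.14 (95% interval -0.32 to 0.60, edgeR adjusted p = 0.796) and was -0.08 without SGC707 C and 0.27 without SGC707 A, so its sign rested on SGC707 C. DICER1 has one of the lowest GC contents of the 10 transcripts, 39.2%, and with the correction for GC content and length it stayed without a call. The ratio of DROSHA to DICER1 counts, chosen after values were seen, was 0.841, 0.898 and 0.806 in replicates A, B and C of SGC707, against 1.13, 1.44 and 0.975 in those of DMSO. The groups did not overlap, at means of 0.848 ± 0.0465 with SGC707 and 1.18 ± 0.237 with DMSO (SD, n = 3 each). The log2 difference was -0.46, and -0.31 without DMSO B. Among single genes 20.6% of all tested did not overlap either. The ratios of DROSHA to DGCR8 and of PRKRA to TARBP2 overlapped, and ratios of the other member pairs were not computed. The separation of a ratio picked in this way is a description only.

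The partners of DICER1 had low counts or wide replicates. TARBP2 (chromosome 12, 53500921 to 53506431, plus strand), with 55 to 141 counts per library the least counted of the 10, stood at 8.52, 7.17 and 4.29 normalised CPM in replicates A, B and C of SGC707, against 5.34, 5.38 and 7.29 in those of DMSO. SGC707 C was the lowest of all 6 and SGC707 A the highest, and the log2 fold change of 0.15 had a 95% interval of -0.56 to 0.87 (edgeR adjusted p = 0.875). It was 0.38 without SGC707 C and -0.06 without SGC707 A.

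PRKRA (chromosome 2, 178431414 to 178451512, minus strand), also known as PACT, an activator of the kinase PKR, stood at 31.1, 41.3 and 46.8 normalised CPM in replicates A, B and C of SGC707, against 36.4, 35.2 and 32.2 in those of DMSO. SGC707 A was the lowest and SGC707 C the highest of the 6 libraries, and the DMSO libraries lay between SGC707 A and B. The log2 fold change was 0.20 (95% interval -0.24 to 0.63, edgeR adjusted p = 0.692), 0.06 without SGC707 C and 0.35 without SGC707 A, and 0.084 with the correction for GC content and length. On the opposite strand, AC009948.1 overlaps PRKRA over 8830 bases and PJVK over 167. Of the 50-base stretches of the PRKRA transcript, 2.25% occur in AC009948.1 transcripts. With the strand setting not stated, reads of these overlaps cannot be told apart. Counts of PRKRA were 3.65, 5.75 and 10.9 times those of TARBP2 in replicates A, B and C of SGC707, against 6.82, 6.55 and 4.42 times in those of DMSO. The SGC707 libraries spanned both ends of this range, and the log2 difference in the ratio, 0.07, turned to -0.34 without SGC707 C and -0.13 without DMSO C.

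**Figure D2:**
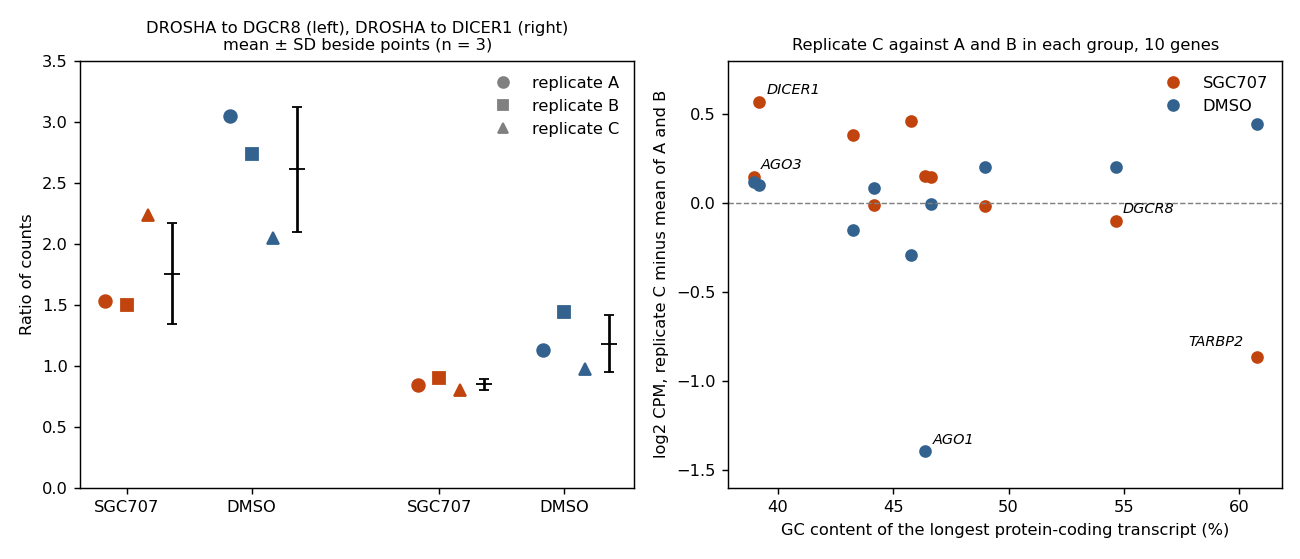
Left, ratio of DROSHA counts to DGCR8 counts and to DICER1 counts in each library, SGC707 left of DMSO in each pair, with mean ± SD beside the points. Right, log2 CPM of replicate C minus the mean of replicates A and B in each group (vertical axis) against transcript GC content in % (horizontal axis) for the 10 genes: with SGC707 the values run from 0.57 for DICER1 to -0.87 for TARBP2, and with DMSO the lowest is AGO1 at -1.39.

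Within the SGC707 group, the deviation of replicate C from the other replicates ran with the GC content of the transcripts. SGC707 C minus the mean of SGC707 A and B was 0.57 for DICER1, 0.46 for DROSHA and 0.38 for PRKRA, and was -0.10 for DGCR8 and -0.87 for TARBP2, the 2 genes with the highest GC content (54.7% and 60.8%), on the log2 scale. The order was not strict: AGO3, with the lowest GC content (38.9%), was at 0.15, and AGO4 (44.2%) at -0.0095. TARBP2, at the far end, had only 55 counts in SGC707 C. Across the 10 genes Spearman's rho of this deviation with GC content was -0.76, a description of genes that share the same 3 libraries. In the DMSO group the same measure gave 0.42. With the correction for GC content and length, and also without SGC707 C, 0 of the 10 genes passed the threshold, against 0.508% and 9.26% of all tested genes.

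The 4 Argonaute genes share their architecture, and AGO4, AGO1 and AGO3 lie in this order on the plus strand of chromosome 1 (35808172 to 35857890, 35869808 to 35930528 and 35930718 to 36072500), with 11917 bases between AGO4 and AGO1 and 189 between AGO1 and AGO3. AGO2 lies on chromosome 8 (140520156 to 140635619, minus strand). No 50-base stretch of the AGO2 transcript occurs in a transcript of another annotated gene. For AGO1, AGO3 and AGO4 the share is 2.54%, 2.02% and 0.354%, with no other Argonaute gene as the main match. Only exact 50-base matches were compared, and how the aligner placed reads was not examined. How cleanly counts separate between the 4 was therefore not tested.

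AGO1 had the largest difference of the 10 genes and the smallest p. Its counts were 877, 792 and 734 in replicates A, B and C of SGC707, against 355, 437 and 161 in those of DMSO. In normalised CPM it stood at 53.0, 49.8 and 57.2 in replicates A, B and C of SGC707, against 33.9, 42.7 and 14.5 in those of DMSO. The SGC707 libraries lay close together and all above the DMSO libraries, and DMSO C stood far below DMSO A and B. The means were 53.3 ± 3.71 with SGC707 and 30.4 ± 14.4 with DMSO (SD, n = 3 each), giving a fold change (log2) of 0.81 (SE 0.35, 95% interval 0.01 to 1.62, unadjusted p = 0.0475, edgeR adjusted p = 0.387). Among all tested genes 12.2% had a smaller p. The size rested on DMSO C: without it the log2 fold change was 0.48 (edgeR adjusted p = 0.343), and without DMSO B, the DMSO library nearest to the SGC707 group, it was 1.14 (edgeR adjusted p = 0.791). Over all 17 alternatives it stayed positive and the adjusted p ranged from 0.0435 (library totals alone) to 0.823.

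AGO2, the most counted Argonaute gene, stood at 104.4, 114.1 and 120.6 normalised CPM in replicates A, B and C of SGC707, against 115.8, 126.8 and 120.6 in those of DMSO. The ranges overlapped, with SGC707 A and B below all DMSO libraries. The log2 fold change was -0.10 (95% interval -0.40 to 0.21, edgeR adjusted p = 0.786). It was -0.043 without SGC707 A, -0.15 without SGC707 C and -0.061 with the correction for GC content and length.

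AGO3 stood at 69.5, 61.5 and 72.5 normalised CPM in replicates A, B and C of SGC707, against 69.8, 74.5 and 78.4 in those of DMSO. The ranges overlapped only through SGC707 C, which lay above DMSO A, and gave a fold change (log2) of -0.13 (95% interval -0.46 to 0.19, edgeR adjusted p = 0.732). This was -0.064 without SGC707 B, -0.19 without SGC707 C and -0.076 with the correction for GC content and length. AGO4 stood at 32.4, 33.5 and 32.7 normalised CPM in replicates A, B and C of SGC707, against 35.0, 24.8 and 31.3 in those of DMSO. Its SGC707 libraries were the closest set of replicates among the 10 genes, with a coefficient of variation of 1.58%. They had 537, 532 and 420 counts in replicates A, B and C, and so close a set is not read as a trait of the gene. They lay inside the DMSO range, with a fold change (log2) of 0.11 (95% interval -0.29 to 0.52, edgeR adjusted p = 0.824), -0.015 without DMSO B and 0.22 without DMSO A.

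**Figure D3:**
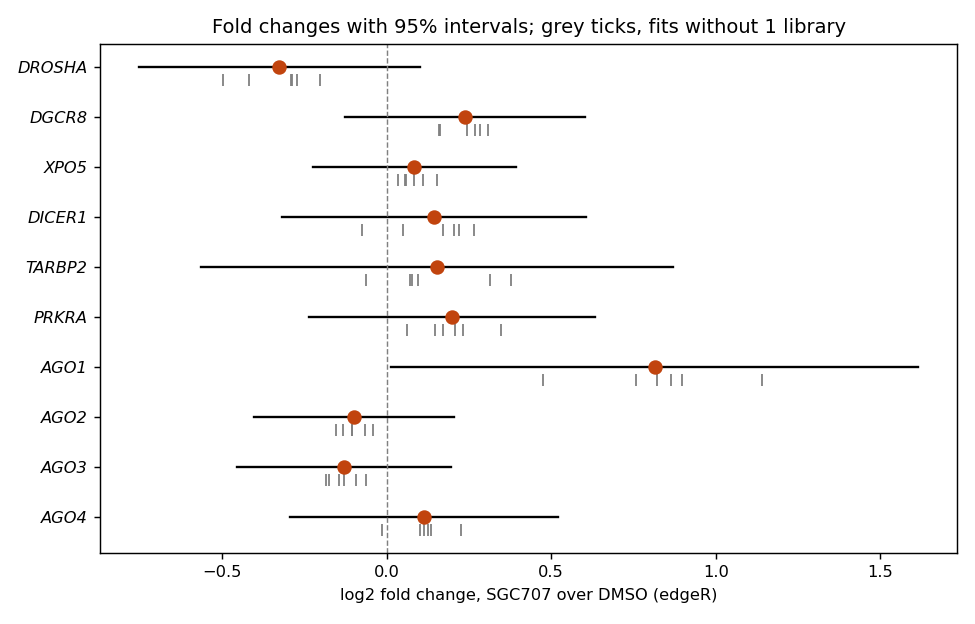
Fold change of SGC707 over DMSO on the log2 scale (horizontal axis) for the 10 genes (vertical axis), as points with 95% intervals, and as grey ticks the values of the 6 fits that leave out 1 library. AGO1 is at 0.81 with ticks from 0.48 to 1.14, DROSHA is at -0.33, and the intervals of all genes but AGO1 include 0.

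The make-up of the Argonaute transcripts was described by shares within each library, with no test. AGO1 made up 20.4% (95% Wilson interval 19.3% to 21.7%), 19.2% (18.1% to 20.5%) and 20.2% (18.9% to 21.5%) of the summed Argonaute counts in replicates A, B and C of SGC707, against 13.3% (12.1% to 14.6%), 15.9% (14.6% to 17.3%) and 5.92% (5.09% to 6.87%) in those of DMSO. These intervals cover counting error only, and DMSO C differed from DMSO A and B by more than that. Per kilobase of transcript, AGO1 took 19.7% ± 0.773 of the Argonaute sum with SGC707 and 11.8% ± 5.30 with DMSO, and AGO2 39.3% ± 1.65 and 44.8% ± 2.41 (SD, n = 3 each). AGO3 took 17.5% ± 1.16 with SGC707 and 20.4% ± 1.91 with DMSO, and AGO4 23.5% ± 1.14 and 23.1% ± 4.18 (SD, n = 3 each). Shares are parts of a whole, so a higher AGO1 share lowers the others by itself. Over AGO2, AGO3 and AGO4 alone, the share of AGO2 was 49.0% ± 1.76 with SGC707 and 50.8% ± 3.19 with DMSO (SD, n = 3 each), and the ranges overlapped. Without DMSO C the AGO1 share was 5.03 percentage points higher with SGC707, against 7.94 with all libraries.

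**Figure D4:**
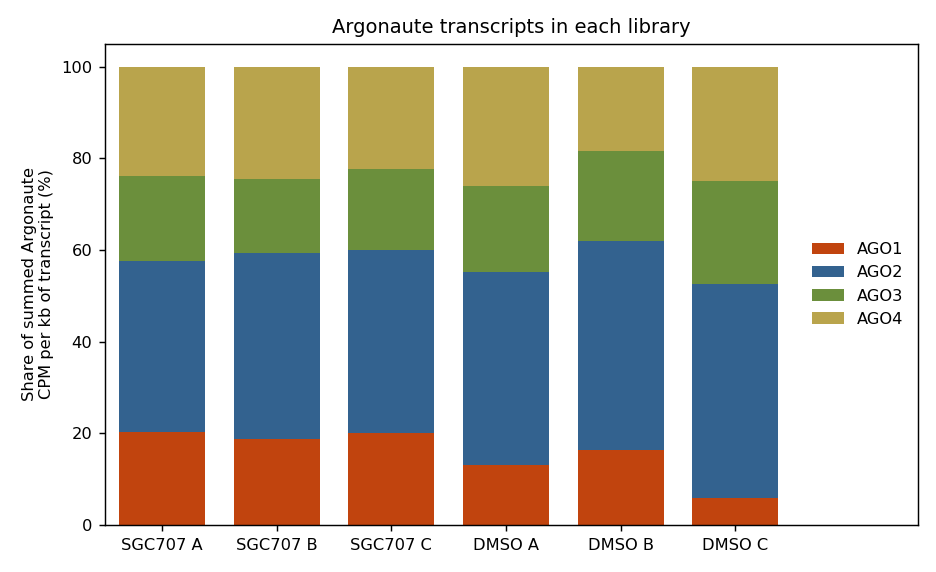
Share of each Argonaute gene in the summed normalised CPM per kilobase of transcript (vertical axis, %) in each library, SGC707 A, B and C left of DMSO A, B and C. AGO1 (red, bottom) takes 18.8% to 20.2% in the SGC707 libraries and 13.1%, 16.3% and 5.97% in replicates A, B and C of DMSO.

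Levels can be set against each other only per length, here normalised CPM per kilobase of the longest protein-coding transcript. On this scale XPO5 had the highest mean in both groups, at 22.4 ± 0.829 with SGC707 and 21.2 ± 1.80 with DMSO (SD, n = 3 each). PRKRA followed at 21.7 ± 4.35 with SGC707 and 19.0 ± 1.18 with DMSO, and DROSHA at 15.3 ± 3.09 and 19.2 ± 2.15. Neighbours in this order overlapped in both groups, although XPO5 was above DROSHA in every SGC707 library. DGCR8 (10.3 ± 0.944 with SGC707 and 8.74 ± 0.893 with DMSO), DICER1 (9.32 ± 2.27 and 8.43 ± 0.972) and AGO2 (7.75 ± 0.562 and 8.30 ± 0.378) came next, and neighbours among them overlapped too. The remaining 4 genes were AGO4 at 4.62 ± 0.0731 with SGC707 and 4.27 ± 0.724 with DMSO, AGO3 at 3.45 ± 0.288 and 3.77 ± 0.219, TARBP2 at 3.57 ± 1.16 and 3.22 ± 0.598, and AGO1 at 3.89 ± 0.271 and 2.21 ± 1.05. AGO1 had the lowest mean with DMSO and lay above TARBP2 and AGO3 in mean with SGC707, but AGO1 and TARBP2 overlapped in both groups. The order depended on the length used. Per kilobase of coding sequence AGO2 was at 40.5 to 46.8 with SGC707 and 44.9 to 49.2 with DMSO, above XPO5 (32.2 to 34.6 and 29.4 to 34.5) in every library. On that scale TARBP2 had the lowest mean in both groups, at 3.90 to 7.76 with SGC707 and 4.86 to 6.64 with DMSO. AGO1 stood at 19.4 to 22.3 with SGC707 and 5.64 to 16.6 with DMSO, and in DMSO C it lay below TARBP2 (5.64 against 6.64). By level, the 10 genes lay between the 29.1 and 85.5 percentiles of the tested genes. The longest AGO3 transcript has 19687 bases, of which 2580 code for protein.

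**Figure D5:**
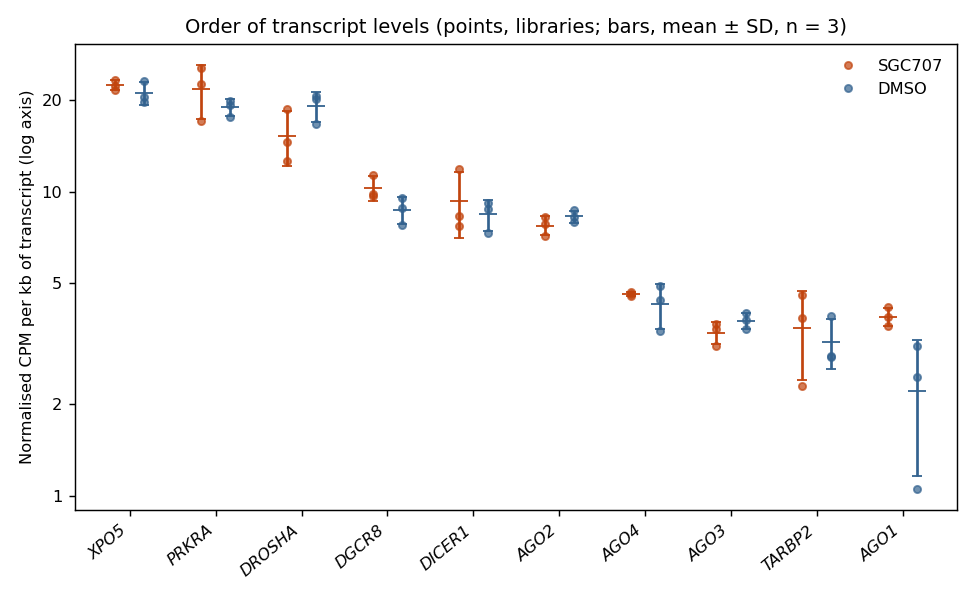
Normalised CPM per kilobase of transcript (log axis) of the 10 genes, ordered by their summed mean, with SGC707 (red) left of DMSO (blue) for each gene; points are libraries and bars the mean ± SD. XPO5, PRKRA and DROSHA lie highest, and AGO1 shows the widest gap between the groups, 3.89 with SGC707 and 2.21 with DMSO.

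Patterns across the 6 libraries were compared by the mean absolute difference of centred log2 CPM, as a description. AGO2 and AGO3 had the smallest difference of all pairs (0.08), followed by DGCR8 and XPO5 (0.09) and by XPO5 and AGO4 (0.11). The measure is small for any genes that vary little between libraries, so it does not show that they vary together. Counts of all 10 genes together, relative to all counts on nuclear genes and scaled as CPM, were 1114, 1182 and 1222 in replicates A, B and C of SGC707, against 1102, 1080 and 1109 in those of DMSO.

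Around the 10 core factors, 112 other genes of the pathway were listed in 6 role groups, of which 105 passed the filter on low counts. None passed the test (edgeR, smallest adjusted p = 0.166), with 55 positive and 50 negative log2 values and a median of 0.02, the same as for all tested genes. At an unadjusted p under 0.05 there were 7 higher and 9 lower, 15.2% of the 105 against 12.8% of all tested genes (5.62% higher and 7.13% lower). DESeq2 called 4 of them (DCP2 and NCBP2 higher, CNOT3 and R3HDM1 lower), or 3.81% against 2.52% of all tested genes, and limma-voom 0. Without SGC707 C, 11 of the 105 passed in edgeR, 2 higher and 9 lower, or 10.5% against 9.26% of all tested genes. The SGC707 libraries lay all above the DMSO libraries in 12 of the 105 and all below in 16. Among all tested genes the shares were 10.8% above and 9.78% below.

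Among 24 GW182 and silencing effector genes 11 had positive and 13 negative log2 values, with the median at -0.03. The SGC707 libraries lay all above the DMSO libraries in 2 of the 24 and all below in 6. The shares over all tested genes were 10.8% above and 9.78% below. This was 1 of 6 role groups looked at, and a lean of the group was not tested. CNOT3, a subunit of the CCR4-NOT deadenylase, had the smallest p of all 105 genes. It stood at 42.8, 39.9 and 34.9 normalised CPM in replicates A, B and C of SGC707, against 85.5, 91.1 and 61.6 in those of DMSO. The groups were well apart, with a fold change (log2) of -1.02 (SE 0.19, edgeR adjusted p = 0.166). The adjusted p ranged from 6.71e-04 (DESeq2) to 0.666 over the alternatives. Without SGC707 C, where 9.26% of all tested genes passed, it was 0.0307 (edgeR).

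The GW182 genes themselves, which bind the Argonautes directly, were named after their values were seen. TNRC6A stood at 115.5, 125.7 and 147.9 normalised CPM in replicates A, B and C of SGC707, against 169.6, 160.5 and 161.5 in those of DMSO, giving a fold change (log2) of -0.34 (edgeR adjusted p = 0.384). Its SGC707 libraries all lay below the DMSO libraries, which was so for 9.78% of all tested genes. TNRC6B averaged 29.7 ± 3.53 with SGC707 and 35.9 ± 1.64 with DMSO (SD, n = 3 each), and also did not overlap, with a fold change (log2) of -0.28 (edgeR adjusted p = 0.506). TNRC6C averaged 60.2 ± 9.01 with SGC707 and 79.3 ± 20.3 with DMSO (SD, n = 3 each) and overlapped, at -0.40 (edgeR adjusted p = 0.492) and at -0.17 without DMSO B, its highest library. Without SGC707 C, where 9.26% of all tested genes passed, TNRC6A passed at -0.45 (edgeR adjusted p = 0.0348). Over the alternatives its adjusted p ranged from 0.00836 to 0.868. The decapping enzyme gene DCP2 stood at 1.10 on the same scale (edgeR adjusted p = 0.233, DESeq2 adjusted p = 0.0155). PABPC1, the main cytoplasmic poly(A)-binding protein gene and the highest of the group per kilobase, stood at -0.30 (edgeR adjusted p = 0.504), at -0.18 without SGC707 A and at -0.46 without SGC707 C. Pseudogenes of PABPC1 are known, and the sequence it shares with them was not measured here.

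Microprocessor cofactors had 10 positive and 7 negative members among 17 tested, with a median of 0.07. HNRNPA1, which binds certain primary microRNAs, averaged 475.4 ± 54.6 normalised CPM with SGC707 and 317.3 ± 46.6 with DMSO (SD, n = 3 each), with a fold change (log2) of 0.58 (edgeR adjusted p = 0.262). It has known pseudogenes as well, and shared sequence was not measured for it either. NCBP2, a subunit of the nuclear cap-binding complex, stood at 1.05 (edgeR adjusted p = 0.263, DESeq2 adjusted p = 0.0370). The most abundant per kilobase, HNRNPA2B1, stood at -8.04e-04 (95% interval -0.40 to 0.40). Of the paralogues LIN28A and LIN28B, which block processing of let-7 precursors, LIN28A did not pass the filter on low counts. LIN28B averaged 16.3 ± 1.95 normalised CPM with SGC707 and 15.2 ± 0.533 with DMSO (SD, n = 3 each), at 0.10 (edgeR adjusted p = 0.856).

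Export and Argonaute-loading genes had 9 positive and 4 negative members among 13, with a median of 0.16. The importin gene IPO8, whose product binds Argonautes, averaged 63.4 ± 10.45 normalised CPM with SGC707 and 48.4 ± 2.40 with DMSO (SD, n = 3 each), at 0.39 (edgeR adjusted p = 0.384) and at 0.24 without SGC707 C. HSP90AB1, a chaperone used in loading, was the most abundant per kilobase and stood at -0.03 (95% interval -0.36 to 0.30).

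Tailing and turnover genes had 6 positive and 6 negative members, with a median of 0.01. The exonuclease gene XRN2 was highest per kilobase, at -0.0043 (95% interval -0.37 to 0.36), and ZC3H12A, an RNase that can cut microRNA precursors, had the smallest p on 7 to 26 counts per library, at -1.21 (edgeR adjusted p = 0.297). Regulators of Argonaute proteins had 6 positive and 5 negative members among 11, with a median of 0.03. MAPKAPK2, a kinase that phosphorylates AGO2, had the smallest p and the highest mean per kilobase over all 6 libraries, although P4HB was above it with SGC707 (38.3 against 35.2 normalised CPM per kilobase). It stood at 104.1 ± 1.38 normalised CPM with SGC707 and 135.6 ± 13.3 with DMSO (SD, n = 3 each), giving a fold change (log2) of -0.38 (edgeR adjusted p = 0.315).

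Host genes of intronic microRNAs had 13 positive and 15 negative members among 28 tested of 33, with a median of -0.07. R3HDM1, which holds MIR128-1 in an intron, averaged 84.6 ± 16.7 normalised CPM with SGC707 and 154.9 ± 39.3 with DMSO (SD, n = 3 each), without overlap, with a fold change (log2) of -0.87 (edgeR adjusted p = 0.244, DESeq2 adjusted p = 0.0316). ZRANB2 had the highest mean per kilobase over all 6 libraries, although MCM7 was above it with SGC707 (86.6 against 74.5 normalised CPM per kilobase). The log2 fold change of ZRANB2 was -0.12 (edgeR adjusted p = 0.853). Without SGC707 C, where 9.26% of all tested genes passed, it was -0.41 (edgeR adjusted p = 0.0473). HTR2C, the host gene of MIR448, did not pass the filter on low counts. Host gene counts come from spliced exons as well and do not measure the microRNAs.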

How the data were processed

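RNA levels of SH-SY5Y cells were read from 1 table of whole-number counts per gene symbol, deposited by the authors without scaling between libraries. HISAT2, StringTie and GRCh38 are named per the submitters' processing notes, with their versions, the annotation and the strand setting not given in the sources used here. Per the labels' protocols, libraries were made from isolated and fragmented mRNA. Samples were grouped by the labels.

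The comparison was fitted with edgeR 4.0.16 under R 4.3.3 (filterByExpr, TMM scaling, robust glmQLFit and glmQLFTest, no covariate), which kept 12196 genes, and p-values were Benjamini-Hochberg adjusted over all of them. Normalised CPM uses the TMM factors. Coordinates, lengths and GC content came from GENCODE release 29 on GRCh38, in which 19271 symbols matched directly, 295 through a synonym and 44 not at all. Figures were drawn with matplotlib 3.10.9.

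Total counts were 11658728 to 15437602 per library. A count of 0 allows up to 3 counts, taken over the library size times its TMM factor, for counting error only. This gave 0.181 (SGC707 A) to 0.293 (DMSO B) normalised CPM. Alternatives were RLE factors, library totals, no filter or a stricter one, DESeq2 1.42.0, limma-voom (limma 3.58.1) with and without library weights, each library left out, the replicate letter as a block, a GC and length correction (lowess, span 0.3), both together, and a fit without mitochondrial genes. In simulated counts for this comparison (12091 genes) edgeR made 8 false calls.

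The members, lists and alternatives were chosen with earlier results of these data known. The text names all 10 members, PRMT3, and in each role group the gene with the highest mean CPM per kilobase over all libraries and the one with the smallest p. TNRC6A, TNRC6B, TNRC6C, DCP2, NCBP2, LIN28A, LIN28B, HTR2C, P4HB and MCM7, and the ratio of DROSHA to DICER1, were added after values were seen.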

Additional observations from a re-analysis of the deposited data

How the results depend on the processing

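None of the 10 genes passed under 15 of the 17 alternatives. With library totals only, 5 of them (PRKRA, AGO1, DGCR8, DICER1 and XPO5) and 34 other pathway genes passed, all higher, but 2605 of all tested genes passed and the median log2 fold change of all genes moved to 0.69. The values of DROSHA (0.33), AGO2 (0.57), AGO3 (0.53), HNRNPA2B1 (0.64), HSP90AB1 (0.63), PABPC1 (0.34), XRN2 (0.63), MAPKAPK2 (0.31), ZRANB2 (0.51), TNRC6A (0.32), TNRC6B (0.38) and TNRC6C (0.30) then turned positive, and all lay below that median. With limma-voom and library weights, DGCR8 passed as higher and DROSHA as lower, 2 of the 10, with 37 other pathway genes and 3437 genes in all, and DICER1 turned to -0.032. DESeq2 called 4 other pathway genes and 307 genes in all, no filter gave 6 genes in all, and the GC and length correction gave 62. Leaving out 1 library gave 0 to 1147 genes in all (0 without DMSO A, without DMSO B and without SGC707 B, 5 without DMSO C, 9 without SGC707 A, 1147 without SGC707 C), 0 of the 10, and 0 to 11 other pathway genes, the 11 without SGC707 C. With 1 library left out, signs near 0 turned for DICER1 (-0.077 to 0.27, lowest without SGC707 C), TARBP2 (-0.063 to 0.38, lowest without SGC707 A) and AGO4 (-0.015 to 0.22, lowest without DMSO B). The same held for HNRNPA2B1 (-0.19 to 0.11), HSP90AB1 (-0.12 to 0.044), XRN2 (-0.16 to 0.085) and ZRANB2 (-0.41 to 0.0039), each lowest without SGC707 C and, apart from ZRANB2 (highest without SGC707 B), highest without SGC707 A. The cause of these changes was not tested. DESeq2 gave no adjusted p for TARBP2 and ZC3H12A.

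The sources used here do not say whether libraries of the same letter are paired. Deviations of same-letter libraries correlated at 0.08 (A), -0.02 (B) and 0.0998 (C). Pairs with unlike letters ran from -0.11 (SGC707 C with DMSO A) to 0.10 (SGC707 B with DMSO A). With so few libraries these values cannot decide the question. As a replicate block the letters gave 0 genes in all and 0 of the 10, with AGO1 at 0.93 (edgeR adjusted p = 0.381). Depth limits TARBP2 most, with 55 to 141 counts.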
